A study of Mus musculus with 6 samples.

Results

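The muscle stem cell and myogenic regulators are 10 genes that hold satellite cells in reserve or turn them into muscle. They were taken by platform gene symbol, and each gene was represented by its brightest probe set naming 1 gene alone, judged by the mean over 6 arrays. All 10 genes were measured, out of 22180 genes in the table. The classes compared were 6 stem genes (Pax7, Myf5, Cdh15, Megf10, Vcam1 and Ncam1) and 4 differentiation genes (Myod1, Myog, Myf6 and Mef2c). RNA came from the tibialis anterior, a fast muscle of the lower leg, of male C57Bl/6 mice sampled at 18 weeks of age, 7 weeks after surgery. The 3 sham samples came from sham-operated mice labelled fasted, and the 3 castrated samples from castrated mice labelled refed. All mice were fasted overnight, and where food was given it was for 30 minutes, followed by 4 hours without food. The series design gives that meal to some mice, whereas the protocol of every sample gives it to all. Because the surgery and feeding labels split the samples identically, their effects cannot be told apart, and "castrated" below stands for castrated and labelled refed.

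Satellite cells are the stem cells of skeletal muscle and lie between the fibre and its sheath. Pax7 marks and maintains them, and 4 related basic helix-loop-helix factors then act in sequence: Myf5 and Myod1 commit cells to the muscle fate, Myog drives terminal differentiation, and Myf6, also called MRF4, is the member most abundant in adult fibres. These factors bind short DNA sequences called E-boxes, and Mef2c is a partner that helps them switch on muscle genes. Satellite cells are a small share of the nuclei in a resting muscle, while Myod1, Myog, Myf6 and Mef2c are also transcribed in fibres, so whole-muscle RNA mixes both sources.

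RefSeq promoter sequence of assembly GRCm38.p6 was used for 5 of the 10 genes, in 7 windows. Those of Myog and Cdh15, a differentiation gene and a stem gene, are shown because both hold E-boxes, the class of sequence bound by the myogenic factors. Each run gives the 250 bases before the RefSeq start, with every match to CANNTG in capitals; the motif reads the same on both strands.
Myog, chr1:134289754-134290003, plus strand: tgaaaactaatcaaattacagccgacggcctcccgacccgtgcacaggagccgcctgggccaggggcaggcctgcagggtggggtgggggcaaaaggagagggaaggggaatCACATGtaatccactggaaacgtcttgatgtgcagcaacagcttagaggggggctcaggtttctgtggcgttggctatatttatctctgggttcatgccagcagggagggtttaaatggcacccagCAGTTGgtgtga
Cdh15, chr8:122848124-122848373, plus strand: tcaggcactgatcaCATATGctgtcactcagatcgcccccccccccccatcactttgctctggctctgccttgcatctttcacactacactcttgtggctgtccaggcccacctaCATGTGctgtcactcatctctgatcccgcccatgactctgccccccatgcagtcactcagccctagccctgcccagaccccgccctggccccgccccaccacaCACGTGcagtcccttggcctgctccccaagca
The Myog window held 2 matches and the Cdh15 window 3. The Pax7 and Myf5 windows held 0, and the 3 Mef2c windows held 2, 0 and 1. A match was found in 66.2% of 32851 promoter windows of the same length, so its presence is a description and marks no site.

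Values are on a log2 scale, and the median over all genes was 5.40 to 5.47 on the 6 arrays. Over all probe sets the median was 5.036 to 5.040 in sham samples and slightly higher, 5.052 to 5.095, in castrated samples. An array gives no depth of sequencing, so precision is set by having 3 samples a group. The 10 myofibre markers fixed for the tissue check, among them skeletal actin Acta1 and the fast myosin Myh4, had means between 12.38 and 13.56. For a sense of dim signal, 18 genes of other organs had means between 2.38 and 5.44, although probe sets differ in response. The dimmest members, Myf5 and Megf10, had means of 5.58 and 5.65 over the 6 arrays, close above that range, where an array understates a fold change. Castrated sample 1 stood apart in slow fibre genes, a list of 8 added after seeing the data. Their summed linear level was 1570 in that sample, between 646 and 811 in sham samples, and 692 and 706 in the other castrated samples.

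None of the 10 genes passed the test of castrated against sham muscle. Ncam1 and Vcam1, adhesion molecules of satellite cells, and Myod1, a commitment factor, had the largest differences relative to their spread: both adhesion genes were higher in castrated samples and Myod1 was lower. Pax7 differed by 0.026 on the log2 scale (standard error 0.11, n = 3 each). By limma with Benjamini-Hochberg adjustment over all genes, 0 of 10 members passed 0.05, where 3 genes or 0.0135% of all genes passed, and the smallest member adjusted p was 0.668. At an unadjusted p under 0.05 there were 3 of 10 members, against 7.13% of all genes, and the groups did not overlap for 1 of 10, against 12.8%. Of the members 6 were higher and 4 lower in castrated samples, where 48.5% of all genes were higher. The median difference of the members was 0.054, against −0.0056 over all genes. Pax7 turned lower when arrays were centred on their medians and Mef2c turned higher after quantile normalization. Missing the threshold does not show that the groups are alike, so the interval of each difference is given.

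**Figure D1:**
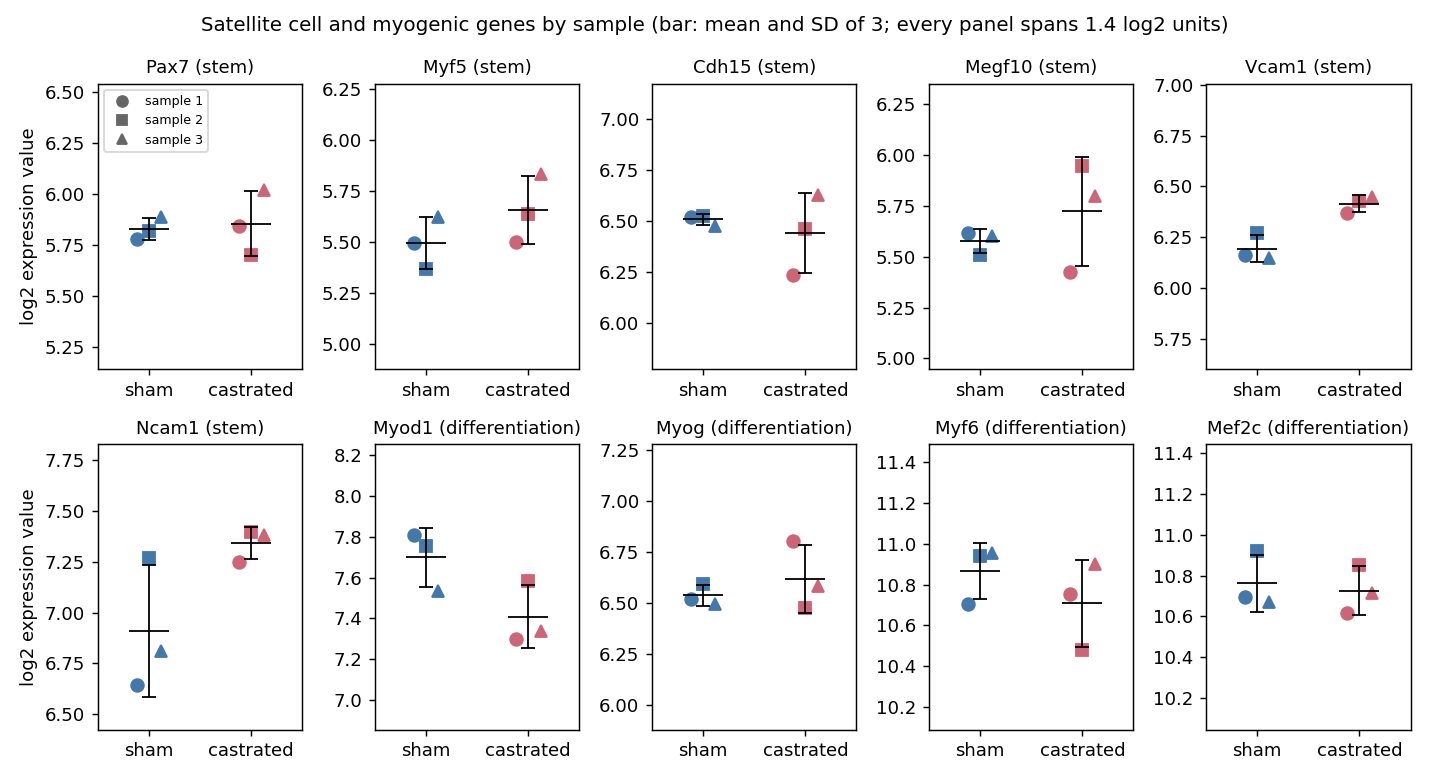
Log2 expression value (vertical axis) of each of the 10 genes in the 3 sham (blue) and 3 castrated (red) samples, with symbols for sample number and the mean ± SD in black. Only Vcam1 has all castrated samples (6.37 to 6.45) above all sham samples (6.15 to 6.27).

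Pax7 (Entrez 18509), the paired-box factor that maintains satellite cells, read 5.78, 5.82 and 5.89 in sham samples and 5.84, 5.70 and 6.02 in castrated samples. The highest and the lowest of the 6 values were both castrated, and the sham values lay between them. The difference had an unadjusted 95% interval from −0.22 to 0.28, or 0.856-fold to 1.21-fold. In whole muscle, fewer satellite cells and less transcript per cell cannot be told apart, and a fall in one with a rise in the other would not be seen.

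Myf5 (Entrez 17877), a commitment factor already transcribed in most satellite cells, read 5.50, 5.37 and 5.63 in sham and 5.50, 5.64 and 5.84 in castrated samples. Castrated samples 2 and 3 were above every sham sample, but castrated sample 1 was inside the sham range. The difference was 0.16 (standard error 0.12, interval −0.11 to 0.44, limma adjusted p = 0.813). Leaving out castrated sample 3 gave 0.075, and leaving out sham sample 2 gave 0.099. Myf6, the adjacent protein-coding gene in the assembly, differed in the opposite direction.

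Cdh15 (Entrez 12555), the M-cadherin that anchors satellite cells to fibres, read 6.52, 6.53 and 6.48 in sham and 6.24, 6.46 and 6.63 in castrated samples. The sham values were nearly identical, while castrated samples 1 and 3 lay on either side of them. The difference was −0.067 (standard error 0.12, interval −0.33 to 0.20), and without castrated sample 1 it was 0.036.

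Megf10 (Entrez 70417), a transmembrane receptor that supports satellite cell proliferation and restrains differentiation, read 5.62, 5.51 and 5.60 in sham and 5.43, 5.94 and 5.80 in castrated samples. Castrated sample 1 was again the lowest of all 6, and the other castrated samples were the highest. The difference was 0.15 (standard error 0.14, interval −0.17 to 0.46). Leaving out castrated sample 1 gave 0.29, and leaving out castrated sample 2 gave 0.036. Of the 10 members 7 had a larger SD in castrated than in sham samples, against 46.8% of all genes; this was not tested.

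Vcam1 (Entrez 22329), an adhesion receptor carried by satellite cells and by activated endothelium, read 6.16, 6.27 and 6.15 in sham and 6.37, 6.43 and 6.45 in castrated samples. It was the only member whose groups did not overlap. The means were 6.20 ± 0.068 and 6.41 ± 0.042 (SD, n = 3 each), and castrated was 1.16-fold higher, with an unadjusted interval from 1.00-fold to 1.35-fold (limma adjusted p = 0.696). Leaving out any 1 sample kept the difference between 0.20 and 0.26.

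Ncam1 (Entrez 17967), a neural cell adhesion molecule of satellite cells, nerve and fibres that have lost nerve contact, read 6.65, 7.27 and 6.81 in sham and 7.25, 7.39 and 7.38 in castrated samples. Sham sample 2 lay above castrated sample 1, so the groups overlapped, and the sham SD of 0.32 was the largest SD of any member in either group. Castrated was 1.35-fold higher (log2 difference 0.43, standard error 0.16, interval 0.076 to 0.79, limma adjusted p = 0.668). The difference was 0.30 without sham sample 1 and 0.61 without sham sample 2. A dimmer probe set listed for both Ncam1 and Gm11149 stood for neither gene, and read 5.28, 5.38 and 5.22 in sham and 5.37, 5.15 and 5.16 in castrated samples. Its mean of 5.26 lay within the range of the genes of other organs, where a difference is hard to see. This probe set was not higher in castrated samples (−0.064, standard error 0.11, interval −0.32 to 0.19, limma adjusted p = 0.935), so the higher Ncam1 value rests on 1 probe set. As a description chosen from 22179 genes, those whose values over the 6 arrays were most like Ncam1 were Ccdc42, Tmod1 and Pex11g, with Pearson r of 0.991, 0.991 and 0.989.

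**Figure D2:**
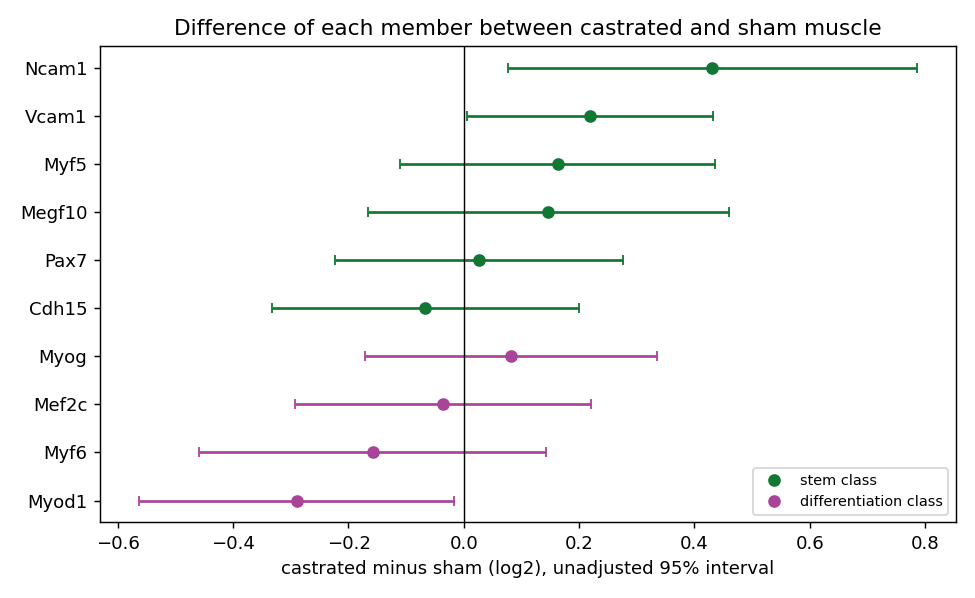
Castrated minus sham difference on the log2 scale (horizontal axis) for each member, with the unadjusted 95% interval from limma and colour for the class. The intervals of Ncam1, Vcam1 and Myod1 exclude 0 before adjustment, and none of the 10 passed after adjustment over all genes.

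Markers of the other cell types that carry Vcam1 or Ncam1 are given beside them. Endothelial markers were higher for 5 of 10 and lower for 5, none past the threshold, with a median of 0.00067 and their summed linear level ran between 3998 and 4587 over sham samples and between 4242 and 4311 over castrated ones. Their defining members Pecam1 and Cdh5 differed by 0.045 and 0.0055. With groups apart, Emcn differed by 0.34 and Cldn5, a tight junction protein, by −0.65 (limma adjusted p = 0.687 and 0.486). The endothelial totals overlapped between the groups, and whether endothelium has a part in the Vcam1 value was not tested. Of 7 measured Schwann cell markers 6 were higher, against 48.5% of all genes and 12 of the 18 genes of other organs. None of the Schwann cell markers passed the threshold. Their median was 0.091, and their sum ran between 423 and 449 over sham samples and between 441 and 507 over castrated ones. Sox10, which defines Schwann cells, differed by 0.0014 and read 5.15 and 5.16 as group means. Gfra3 differed by 0.25 with groups apart (limma adjusted p = 0.691), and Cdh19 by 0.36 and S100b by 0.21 without such a split. Sox10, Gfra3, Cdh19 and S100b all had mean levels within the range of the genes of other organs. Whether Schwann cells have a part in the Ncam1 value was not tested.

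Myod1 (Entrez 17927), the commitment factor also known to be favoured in fast fibres, read 7.81, 7.75 and 7.54 in sham and 7.30, 7.59 and 7.34 in castrated samples. Castrated samples 1 and 3 were below every sham sample, and castrated sample 2 was just above sham sample 3. Castrated was 1.22-fold lower (log2 difference −0.29, standard error 0.12, interval −0.56 to −0.017, limma adjusted p = 0.691). With 1 sample left out the difference ran from −0.38 to −0.24.

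Myog (Entrez 17928), the factor of terminal differentiation, favoured in slow fibres, read 6.52, 6.59 and 6.50 in sham and 6.80, 6.47 and 6.58 in castrated samples. Castrated sample 1 stood above the other 5, and it is the sample with the high slow fibre level; the slow myosin Myh7 read 7.41 there and 5.11 to 5.40 elsewhere. Myod1 was at its lowest in the same sample. The Myog difference was 0.082 (standard error 0.11, interval −0.17 to 0.33) and −0.0097 without castrated sample 1. The part of slow fibre content in these values was not tested.

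Myf6 (Entrez 17878) read 10.71, 10.94 and 10.96 in sham and 10.75, 10.48 and 10.90 in castrated samples. Castrated sample 2 was the lowest, and the other castrated samples lay inside the sham range. The difference was −0.16 (standard error 0.13, interval −0.46 to 0.14), and −0.042 without castrated sample 2.

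Mef2c (Entrez 17260) read 10.70, 10.92 and 10.67 in sham and 10.61, 10.85 and 10.71 in castrated samples. The groups covered nearly the same range, with a difference of −0.036 (standard error 0.11, interval −0.29 to 0.22). A second, dimmer probe set of the gene went from 7.40 to 7.20 as group means, a difference of −0.21 (standard error 0.13, interval −0.51 to 0.099). It did not pass among the 41345 probe sets tested one by one (limma adjusted p = 0.835).

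The stem and differentiation classes had medians of opposite sign and small size. Of the stem genes 5 of 6 were higher, with a median difference of 0.15, while 3 of 4 differentiation genes were lower, with a median of −0.097. Over all genes 48.5% were higher and 51.5% lower. The exceptions in the 2 classes were Cdh15 and Myog, and no gene of either class passed. After each gene was centred over the arrays, the stem median was −0.072, −0.027 and −0.022 in sham and −0.037, 0.093 and 0.17 in castrated samples. The differentiation median was −0.052, 0.16 and −0.047 in sham and −0.083, −0.037 and −0.014 in castrated samples. Both classes therefore overlapped between the groups, and only castrated samples 2 and 3 stood out in the stem class. Stem minus differentiation lay between −0.19 and 0.024 in sham samples and, without overlap, between 0.046 and 0.18 in castrated samples. The genes and classes were chosen with earlier results of these samples known, so no test was made of this difference.

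The gap between the class medians, 0.25, rested in part on the 3 genes with the smallest p. It was 0.12 without Ncam1, Vcam1 and Myod1, and stem minus differentiation then overlapped between sham (−0.23 to 0.099) and castrated samples (−0.11 to 0.16). The gap was 0.15 without sham sample 2. For the stem median, leaving out castrated sample 1 gave 0.24 and leaving out castrated sample 3 gave 0.092. The differentiation median was −0.15 without sham sample 1, −0.040 without sham sample 2 and −0.036 without Myod1.

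**Figure D3:**
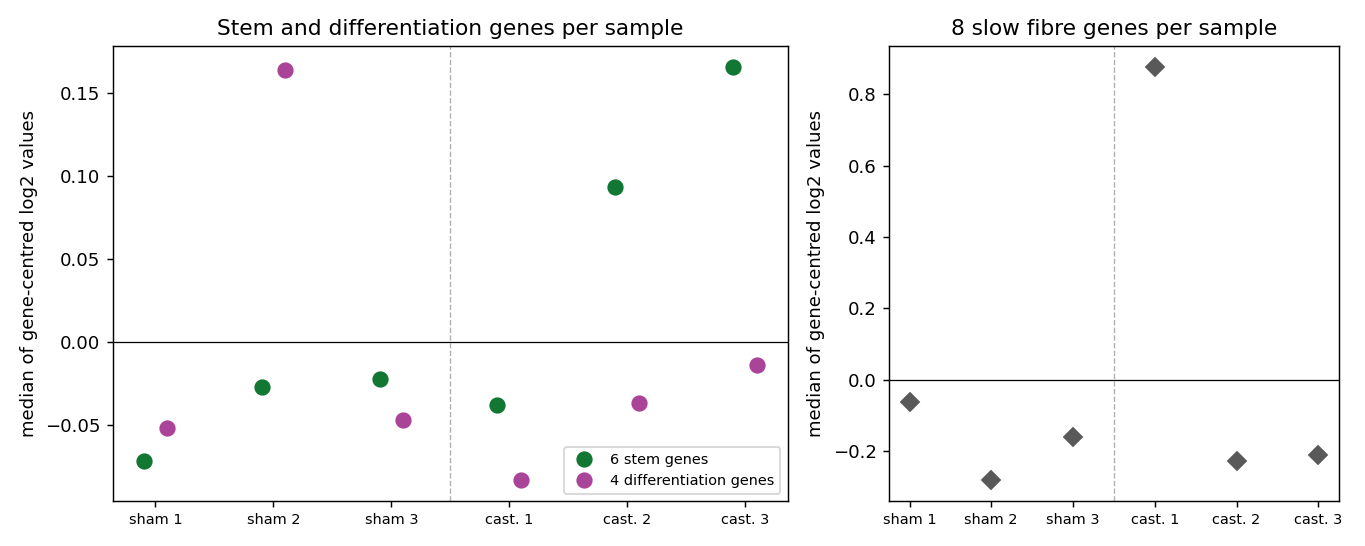
Left, the median of gene-centred log2 values (vertical axis) of the 6 stem and 4 differentiation genes in each sample; right, the same for 8 slow fibre genes. The stem median is highest in castrated samples 3 (0.17) and 2 (0.093), and the slow fibre median is 0.88 in castrated sample 1 and below 0 in the other 5.

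Further satellite cell markers differed in both directions, none past the threshold. Of 22 measured, 13 were higher and 9 lower, with a median of 0.036 and 0 past the threshold by limma. Over all genes 48.5% were higher and 7.13% had an unadjusted p under 0.05, and the same shares stand beside the lists that follow. At an unadjusted p under 0.05 there were 2 in this list. These were Itga7, the laminin receptor subunit of fibres and satellite cells (−0.31, standard error 0.11), and Sdc4, a heparan sulphate co-receptor for growth factors (−0.33, standard error 0.14), the former with all castrated samples below all sham samples and the latter with groups that met at 8.12. Leaving out sham sample 1 gave −0.20 for Sdc4. Calcr, the calcitonin receptor of quiescent satellite cells, differed by 0.29 (standard error 0.14), at levels within the range of the genes of other organs, and by 0.15 when sham sample 3 was left out. Pax3, the relative of Pax7, differed by 0.013 (standard error 0.15), with a sign that changed between normalizations. The values of this list thus lay on both sides of 0.

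Partners and inhibitors of the myogenic factors gave 9 higher and 18 lower of 27 measured, with a median of −0.026 and 0 past the threshold by limma, and 4 at an unadjusted p under 0.05. Id1, which binds the E-protein partners of the myogenic factors and keeps them from DNA, read 6.67, 6.41 and 6.44 in sham and 7.03, 7.30 and 7.05 in castrated samples. The groups were well apart, yet Id1 did not pass over all genes (log2 difference 0.62, standard error 0.12, limma adjusted p = 0.391). Tead4, a factor of myoblast differentiation, differed by −0.27 and Cdon, a cell surface promoter of differentiation, by −0.30. Srf, also among the 4, differed by −0.24 with groups apart. The E-protein Tcf12 (−0.018) and Mef2d (−0.026) changed sign after quantile normalization, Mef2a differed by −0.086 (−0.023 with castrated sample 1 left out), and Hdac4, a repressor of MEF2 factors, by 0.33 (standard error 0.17).

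Among 20 measured genes of differentiation and fusion, 11 were higher and 9 lower, with a median of 0.044, and 3 had an unadjusted p under 0.05. Actc1, the cardiac actin also made by developing muscle, was the only gene of the 6 related lists past the threshold and rose from 9.16 ± 0.057 to 10.76 ± 0.093 (SD, n = 3 each; limma adjusted p = 0.00136). It did not pass without variance moderation (adjusted p = 0.312). The adhesion gene Jam2 differed by 0.41 and the perinatal myosin Myh8 by −0.24, neither past the threshold. A second Myh8 probe set differed by 0.20 (standard error 0.12), and the mean of both gave −0.018, so the direction of Myh8 depends on the probe set. That second probe set had group means of 4.01 and 4.21, within the range of the genes of other organs, against 6.51 and 6.28 for the main one. Mymk, the fusogen myomaker, differed by 0.15 (standard error 0.093), at levels within the range of the genes of other organs.

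Genes of the response to loss of nerve contact and of the junction between nerve and muscle were taken as a mixed list. Myog and Ncam1 are known to respond to such loss. Of the 13 measured genes of the list 9 were lower, against 51.5% of all genes, with a median of −0.11. By limma 0 passed the threshold, and 4 had an unadjusted p under 0.05, against 7.13% of all genes. Musk, the receptor kinase of the junction, read 7.94, 7.71 and 8.12 in sham and 7.18, 6.83 and 7.33 in castrated samples. Those groups were apart, with a difference of −0.81 (standard error 0.16, limma adjusted p = 0.391). In the other direction, the acetylcholine receptor subunit Chrna1 differed by 0.25 and the esterase Ache by 0.24, again with groups apart and not past the threshold. Chrnd, another receptor subunit and also among the 4, differed by −0.25, with all castrated samples below all sham samples. The subunits Chrnb1 and Chrne differed by −0.037 and 0.045, with overlapping groups. The fetal receptor subunit Chrng differed by 0.13 and Runx1, a factor induced by denervation, by −0.11, both with overlapping groups and a sign that changed when single samples were left out. Chrng had group means of 4.99 and 5.12, within the range of the genes of other organs.

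Niche signals were even, with 12 of 24 higher, a median of 0.0039, 0 past the threshold by limma and 1 at an unadjusted p under 0.05. That gene was Tnfrsf12a, the TWEAK receptor (−0.56, standard error 0.19), which was −0.33 without castrated sample 2. The chemokine Cxcl12 differed by 0.22, Il6 by −0.29 at a mean level within that of genes of other organs, the growth factor Igf1 by 0.21 and myostatin, Mstn, by 0.39. Without castrated sample 3 the Igf1 value was 0.099 and the Mstn value 0.12, so neither size is firm, and Il6 was −0.18 without sham sample 3. Proliferation genes were higher for 6 of 13, with a median of −0.046, 0 past the threshold by limma and 2 at an unadjusted p under 0.05. Ccnd1, the cyclin of the G1 phase, differed by 0.40 and Pcna, the replication clamp, by −0.26, each with groups apart. Aurkb differed by −0.24 and the proliferation marker Mki67 by 0.20, both at levels within the range of the genes of other organs. Leaving out sham sample 2 gave −0.13 for Aurkb, and leaving out sham sample 3 gave 0.094 for Mki67.

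**Figure D4:**
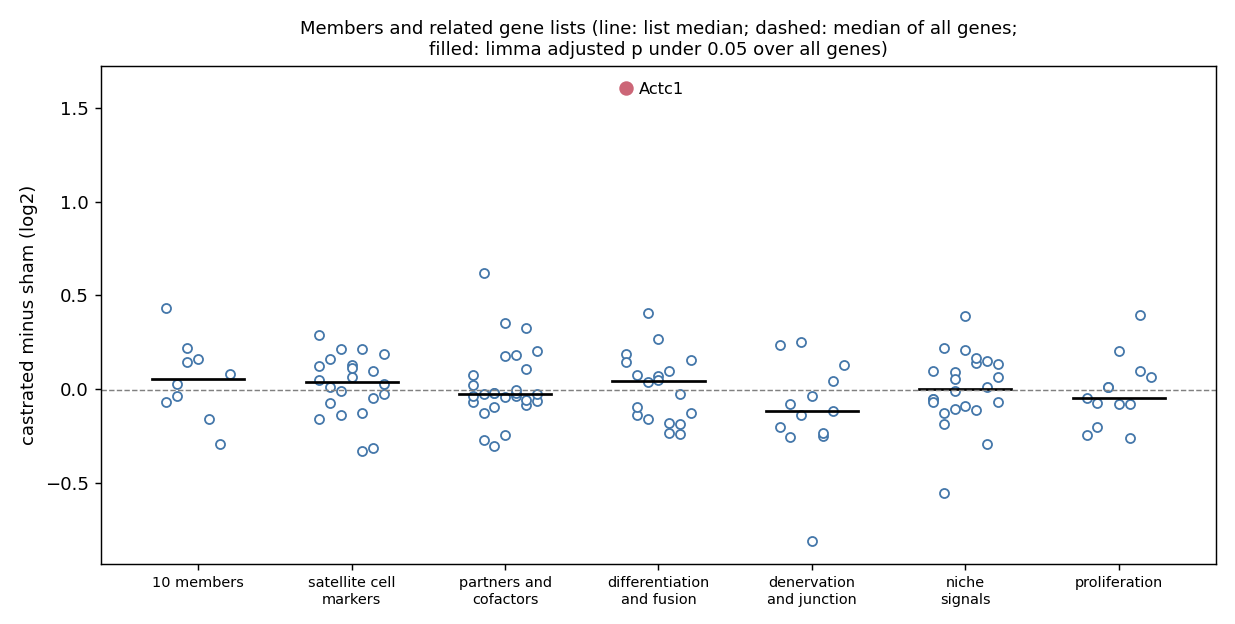
Castrated minus sham difference on the log2 scale (vertical axis) for the 10 members and each measured gene of 6 related lists, with list medians as black lines and the median of all genes dashed. Actc1 at 1.60 is the only filled point, and the 10 members lie between −0.29 and 0.43.

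Macrophage and fibroblast-like markers set sham sample 1 and castrated sample 1 apart from the other samples. Macrophage markers were higher for 2 of 10, against 48.5% of all genes, with a median of −0.081. Their summed level was 1590 in sham sample 1 and 1271 in castrated sample 1 against 835 to 999 in the other samples. Markers of fibroblast-like progenitors were higher for 3 of 9, with a median of −0.046, and summed to 7264 and 6976 in the same samples against 5503 to 6229. The collagen gene Col1a1 adds to the sum of castrated sample 1, where it read 10.12 against 8.25 to 9.75 elsewhere. By limma 3 of 9 had an unadjusted p under 0.05, against 7.13% of all genes. These were Col1a1 (0.87, groups overlapping), and Pi16 (−0.49) and Gsn (−0.28), both with groups apart. Pericyte and smooth muscle markers were higher for 4 of 8, with a median of 0.021 and no gene with groups apart. Their sum was slightly higher in castrated samples (7968 to 8147) than in sham samples (6974 to 7925). The brightest of these markers, Rgs5, weighs most in that sum and differed by 0.15 with overlapping groups. None of these markers passed. Sham sample 1 also had the lowest Ncam1 value and castrated sample 1 the lowest Cdh15 and Megf10 values; the part of these cells in those values was not tested.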

How the data were processed

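Muscle RNA of 3 sham and 3 castrated mice was labelled with biotin (300 ng each) for Affymetrix whole-transcript arrays, per the labels' protocols. The authors deposited normalized log2 values, with a row per probe set. The submitters' processing notes name Partek, with no version, and how background was corrected and arrays normalized is not given in the sources used here; such steps can shrink differences of dim genes. Of 41345 probe sets, 23521 carry 1 gene symbol, 1814 several and 16010 none; 23328 of the first were matched by Entrez identifier to GRCm38.p6 symbols. This gave 22180 genes. No filter was applied.

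Groups come from the sample titles. The labels name a mouse per sample and no more, and a p-value covers only the spread among these samples. Castrated minus sham was fitted by lmFit and eBayes of limma 3.58.1 (R 4.3.3) without covariates, and p-values were adjusted over all 22180 genes by Benjamini and Hochberg, at 0.05. Intervals are limma's 95% intervals, unadjusted. The members, classes and lists were chosen with earlier results of these data known, so class and list values carry no test.

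Named genes were the 10 members, the 3 genes with the smallest p of each of 6 related lists with any past the threshold, and 15 genes given whatever their values. A few other genes of these lists were added beside them after seeing the data. Linear levels are sums of 2 to the power of the log2 value. Same-numbered samples deviated from their group means with low correlations of 0.076, 0.033 and 0.047. The labels name no pairs, and the main test used none. Whether same-numbered samples share a batch cannot be told from these values. On simulated data for castrated against sham (22180 genes, 200 changed), a log2 change of 0.5 was recovered in 26% of genes, 1 in 88%, 1.5 in 88% and 2 in 98%, with 4 false calls. The adjustment is less strict when many genes change. These shares can therefore be too high for the present data, where 3 genes passed. Figures used matplotlib 3.10.9.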

Additional observations from a re-analysis of the deposited data

How the results depend on the processing

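No member passed the threshold under any of the alternatives run, which covered other normalizations, filters, variance priors, array weights, every probe set alone, a threshold of 0.10 and leaving out each sample; with all samples the member adjusted p ran from 0.362 to 0.995. With the replicate number as a replicate block 0 members and 2 genes passed, against 3 genes without it, and no member's call changed. Over all genes 9 passed when genes below the 25th percentile of mean signal were dropped, 16 when those below the 50th were dropped, 10 with a trended robust prior and 0 without variance moderation, where 3 passed in the main test and 3 to 4 with a sample left out. Under the filters fewer genes were tested, and the variance prior was also fitted again on the genes kept. The part of each in these counts was not tested. Signs near 0 were not firm. After quantile normalization Mef2c was 0.0070, Pax3 −0.014, Mef2d 0.019 and Tcf12 0.015; with arrays centred on medians Pax7 was −0.011 and Pax3 −0.025. With cyclic loess, added after seeing the data, Pax3 was −8.07e-05, Mef2d 0.0097 and Tcf12 0.017, and with array weights Pax3 was −0.028 and Tcf12 0.0070. With a sample left out the ranges were −0.057 to 0.10 for Pax7, −0.16 to 0.036 for Cdh15, −0.0097 to 0.15 for Myog, −0.099 to 0.043 for Mef2c, −0.16 to 0.12 for Pax3, −0.082 to 0.044 for Mef2d, −0.084 to 0.065 for Tcf12, −0.014 to 0.23 for Chrng and −0.19 to 0.020 for Runx1. The stem median ran from 0.092 to 0.24 and its gap to the differentiation median from 0.15 to 0.34. With arrays centred on medians the stem median was 0.117 and that gap 0.25, and after quantile normalization they were 0.122 and 0.18. That gap was 0.12 without Ncam1, Vcam1 and Myod1, an alternative added after seeing the data. Of the 10 members 6 kept their sign in all alternatives run. Dim signal limits Megf10, Myf5 and Pax7 most, and 3 samples a group left most differences of 0.5 undetected in simulation.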
